A study of Mus musculus with 15 samples.

Results

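Of 10 genes followed here, which interferon is known to induce in defence against viruses, 8 were present in the count tables of the colon. They were chosen by symbol, with earlier results of these data known. They comprise the ADP-ribosyltransferases Parp9, Parp10, Parp12 and Parp14, the ubiquitin ligase Dtx3l, and the genes of the ISG15 pathway Uba7, Ube2l6, Herc6, Isg15 and Usp18. Isg15 and Usp18 were not analysed here. All 8 others were in each of the 3 tables, among 12370 genes common to them. Each of the 5 groups held 3 mice. Untreated C57BL/6 (B6) wildtype mice formed control set 1 and control set 2, and untreated Irf1-/- mutants on the B6 strain formed another group. The 2 treated groups, B6 and Irf1-/-, had received the colon carcinogen azoxymethane (AOM) once at 7 mg/kg on D1 and 2% dextran sulfate (DSS), which injures the gut lining, given to drink on D8 to D11, and their colons were taken at D26. The mutation is carried in every cell of the animal, and the distal colon was homogenized whole, so that fewer cells of a type and less RNA per cell cannot be told apart. For the AOM/DSS model in general, mice were 8 to 10 weeks old at the start.

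Interferon regulatory factor 1 (Irf1) is a transcription factor that interferons induce and that in turn switches on many interferon-stimulated genes. ADP-ribosyltransferases of the Parp family attach ADP-ribose to proteins and nucleic acids. Parp9 acts in a complex with Dtx3l, while Parp10, Parp12 and Parp14 transfer single ADP-ribose units. ISG15 is a ubiquitin-like protein that is joined to other proteins by a cascade in which Uba7 is the activating enzyme, Ube2l6 the conjugating enzyme and Herc6 the main ligase of the mouse, and Usp18 removes it.

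Between 22266607 and 22869853 reads were counted per library over the deposited genes. Every member had at least 159 reads in every library (Herc6 in an untreated Irf1-/- mouse). In some groups the spread between mice was no larger than counting error, as for Parp9 in control set 1 (1591, 1573 and 1552 reads). Levels are given as CPM, counts scaled to a common library size by TMM normalization of all 15 libraries. Irf1 itself was 133 ± 6.92 CPM in control set 2 and 94.7 ± 19.8 CPM in untreated Irf1-/- colons (SD, n = 3). After treatment it was 208 ± 29.9 CPM in B6 and 110 ± 11.7 CPM in Irf1-/- colons. The highest Irf1-/- library (123 CPM) was below the lowest B6 library (128 CPM), although reads of the gene were still counted in the mutants and neither comparison passed the threshold for Irf1. The counts do not show which exons the reads came from. Colon markers were present: the 16 epithelial markers summed to between 12060 and 18598 CPM per library.

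Per kb of the longest transcript, Parp12 was the most abundant of the 8 in untreated B6 colons of control set 1, at 31.7 ± 1.30 CPM per kb. It was followed by Parp9 (19.6 ± 0.171), Dtx3l (18.6 ± 0.726) and Parp14 (15.9 ± 1.84 CPM per kb). Next came Ube2l6 (13.0 ± 0.952), Uba7 (12.7 ± 0.674) and Parp10 (11.7 ± 0.414 CPM per kb). Herc6 was lowest, at 2.96 ± 0.575 CPM per kb. Ube2l6 and Uba7 differed by less than either SD, and the other neighbours in the order by more than the larger SD of the pair. These SD are between mice and do not cover the choice of transcript length. In CPM, not scaled for length, Parp14 (118.1) stood above Parp12 (102.5) in this set. Per kb in control set 2, Dtx3l (20.4 ± 2.77) stood before Parp9 (17.7 ± 1.57 CPM per kb), apart by less than the SD of Dtx3l, and the rest kept their places. In untreated Irf1-/- colons the order was Parp12 (15.7 ± 1.18), Dtx3l (13.6 ± 0.719), Ube2l6 (11.1 ± 1.43), Parp9 (10.4 ± 1.70), Parp10 (6.42 ± 0.863), Parp14 (5.80 ± 0.631), Uba7 (4.43 ± 0.373) and Herc6 (1.59 ± 0.146 CPM per kb), where Ube2l6 and Parp9, and Parp10 and Parp14, differed by less than either SD.

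The promoters of these genes were read from RefSeq (build GRCm38.p6, 250 bases before to 50 after the annotated start). The table held 5 of the 8 measured members and Isg15, and the count tables were made on mm9, so no other coordinates are given. Shown are Uba7, with the largest fold between genotypes, Ube2l6, with the smallest, Dtx3l, the partner of Parp9, and Isg15, whose promoter is a textbook interferon target. Each was searched on both strands for the core bound by IRF factors (AANNGAAA), the interferon-stimulated response element core (2 copies of GAAA with any 2 bases between them, overlapping the IRF core) and the gamma-activated site (TTCNNNGAA). Capitals mark matches to any of these.
Uba7, chr9:107975317-107975616, plus strand: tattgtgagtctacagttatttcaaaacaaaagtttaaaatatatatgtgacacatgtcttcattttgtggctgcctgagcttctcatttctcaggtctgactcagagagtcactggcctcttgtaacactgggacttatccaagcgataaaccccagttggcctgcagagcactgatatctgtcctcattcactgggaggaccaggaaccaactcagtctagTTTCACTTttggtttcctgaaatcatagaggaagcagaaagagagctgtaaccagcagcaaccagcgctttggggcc
Dtx3l, chr16:35938978-35939277, minus strand: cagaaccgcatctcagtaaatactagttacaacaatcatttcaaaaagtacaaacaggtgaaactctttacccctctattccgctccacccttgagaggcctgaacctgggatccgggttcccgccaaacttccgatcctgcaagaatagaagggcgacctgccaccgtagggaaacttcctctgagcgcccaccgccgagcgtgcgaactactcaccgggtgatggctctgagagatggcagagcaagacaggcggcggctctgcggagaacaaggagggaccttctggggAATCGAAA
Ube2l6, chr2:84798578-84798877, plus strand: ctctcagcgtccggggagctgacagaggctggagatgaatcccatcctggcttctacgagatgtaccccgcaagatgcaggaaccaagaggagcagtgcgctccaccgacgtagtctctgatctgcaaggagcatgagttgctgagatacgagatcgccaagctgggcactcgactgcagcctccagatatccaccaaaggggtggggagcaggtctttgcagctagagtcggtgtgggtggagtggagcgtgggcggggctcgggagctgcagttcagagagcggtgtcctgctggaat
Isg15, chr4:156200769-156201068, minus strand: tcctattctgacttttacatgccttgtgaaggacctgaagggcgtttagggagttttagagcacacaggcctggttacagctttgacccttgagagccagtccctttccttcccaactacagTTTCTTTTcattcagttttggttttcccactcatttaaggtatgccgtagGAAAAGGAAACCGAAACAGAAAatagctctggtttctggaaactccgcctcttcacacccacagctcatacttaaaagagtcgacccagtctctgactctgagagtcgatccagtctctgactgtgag
Uba7 held 1 IRF core, on the minus strand, its first base 27 bases before the start, and Dtx3l held 1, at base 43 after the start. Ube2l6, Parp12 and Herc6 held none of the motifs. Isg15 held 4 IRF cores and 3 overlapping response element cores. Of all 32851 promoters, 23.9% held an IRF core, 3.44% a response element core and 8.30% a gamma-activated site. The 2 IRF cores among 5 measured promoters are a description of these letters, and no match says only that the letters are not in this window.

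**Figure D1:**
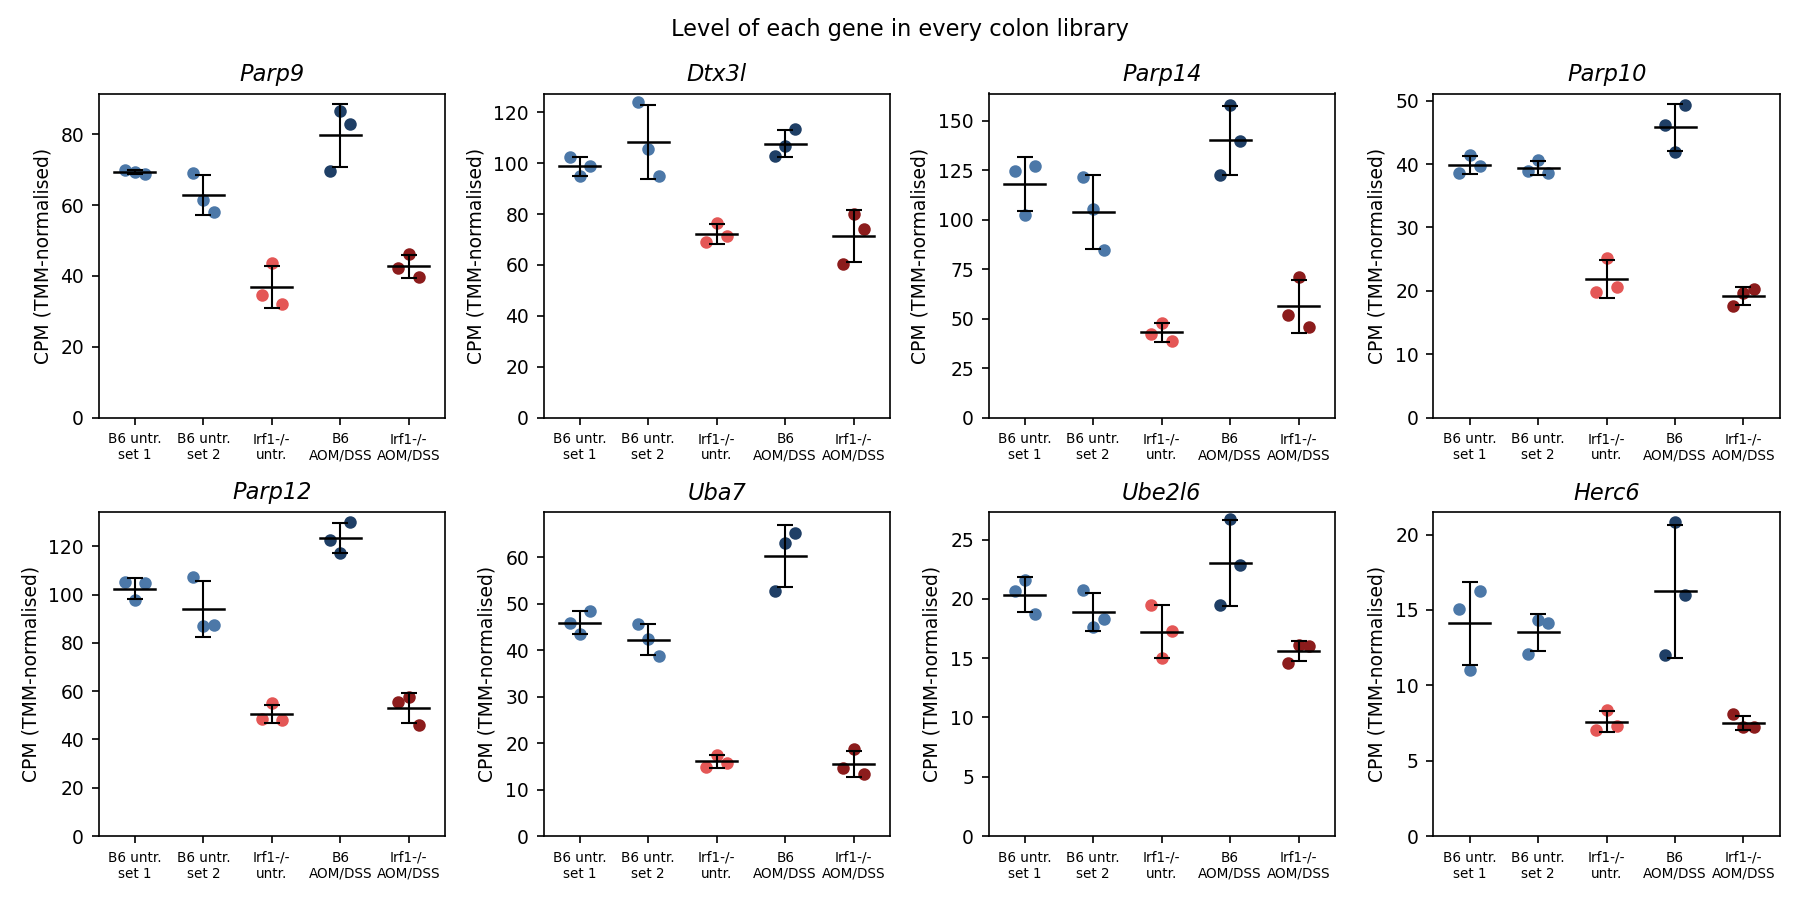
TMM-normalised CPM (vertical axis, from 0) of the 8 genes in each of 15 libraries. Points are mice, horizontal lines are means of 3 and bars are SD; in all panels but that of Ube2l6 both Irf1-/- groups lie below all 3 B6 groups.

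To examine what loss of Irf1 does to these genes at steady state, untreated Irf1-/- colons were compared with control set 2. Of the 8 genes, 5 were called downregulated: their fold change (FC) was 1.5 or more and their Benjamini-Hochberg adjusted p in edgeR's quasi-likelihood test was under 0.01. Of all 12588 genes tested, 0.318% were called lower. Uba7, Parp14, Parp12, Parp10 and Parp9 were called, Herc6 missed the threshold on the adjusted p, Dtx3l missed it on the adjusted p and narrowly on the fold, and Ube2l6 differed by less than the spread between mice. The Irf1-/- and B6 libraries did not overlap for 7 of the 8, while 7.57% of all genes separated in this direction. The members' median log2 FC was -0.84, and that of all genes 0.00.

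Uba7, the first of the promoters printed above, showed the largest fold of the 8, at 45.5, 42.4 and 38.8 CPM in the B6 mice and 14.9, 17.5 and 15.7 CPM in Irf1-/- mice. This gave a log2 FC of -1.40 ± 0.09 (here and below ± SE of the fit for a log2 FC), a 2.63-fold decrease with an adjusted p of 9.17e-05 in edgeR. It ranked 3 by p among all genes tested.
Parp14 was 122, 105 and 84.6 CPM in B6 and 42.4, 48.0 and 38.7 CPM in Irf1-/- mice, a log2 FC of -1.27 ± 0.13 (adjusted p = 0.00109 from edgeR).
For both genes the highest Irf1-/- library lay below the lowest B6 library by more than either group's SD. Both kept their call whichever of the 6 mice was left out.

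Parp12, a zinc finger member of the family, was 107, 87.1 and 87.5 CPM in B6 and 48.6, 55.0 and 48.2 CPM in Irf1-/- mice (log2 FC -0.89 ± 0.09, adjusted p = 0.00131 from edgeR). Parp10 was 38.8, 40.7 and 38.6 CPM against 19.8, 25.2 and 20.5 CPM (-0.85 ± 0.10, adjusted p = 0.00244). Parp9 was 69.1, 61.5 and 58.2 CPM against 34.8, 43.6 and 32.1 CPM (-0.77 ± 0.11, adjusted p = 0.00882).
All 3 calls were lost when certain mice were left out. Without replicate 1 or replicate 3 of the Irf1-/- group, Parp12 had an adjusted p of 0.0122 or 0.0103 and Parp10 of 0.0130 or 0.0160, with Parp12 at -0.86 and Parp10 at -0.78 or -0.81. Without control replicate 3, Parp10 was -0.87 with an adjusted p of 0.0115. Parp9 lost its call in 5 of 6 fits, those without any 1 of the B6 mice (adjusted p 0.0198, 0.0178 and 0.0219) or without Irf1-/- replicate 1 or 3 (0.0515 and 0.0397), with log2 FC from -0.92 to -0.68 over the 6 fits.

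Dtx3l, the partner of Parp9, was 124, 106 and 95.1 CPM in B6 and 68.9, 76.4 and 71.3 CPM in Irf1-/- mice (log2 FC -0.58 ± 0.09, adjusted p = 0.0165 from edgeR). Herc6, the ligase, was 12.1, 14.3 and 14.1 CPM against 7.07, 8.36 and 7.28 CPM (-0.83 ± 0.13, adjusted p = 0.0115). In both genes the groups did not overlap. Of 12 alternative settings, 1 called Dtx3l (DESeq2) and 5 called Herc6, and neither was called in any of the 6 fits without a mouse. Among the 5 was the setting that kept the fit and only raised the adjusted p threshold to 0.05. Its call of Herc6 followed from the adjusted p above.
Ube2l6, the conjugating enzyme, was 20.7, 17.6 and 18.3 CPM in B6 and 19.5, 14.99 and 17.3 CPM in Irf1-/- mice. The groups overlapped, and the log2 FC was -0.13 with a 95% interval of -0.40 to 0.13 (adjusted p = 0.800 from edgeR). A decrease as large as that of Uba7 lies outside this interval.

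Against control set 1 in place of set 2, 5 members were called lower with 0.773% of all genes. These were Uba7 (log2 FC -1.52, adjusted p = 7.47e-06 from edgeR), Parp14 (-1.46), Parp12 (-1.02), Parp9 (-0.92) and Parp10 (-0.87). Against both sets, 6 were called with 0.419% of all genes, Herc6 being added (adjusted p = 0.00755). Dtx3l was -0.45 against set 1 (adjusted p = 0.00276) and -0.52 against both (0.00993), in each with a fold under 1.5, and Ube2l6 was -0.24 against set 1 (0.257). Between the control sets no member was called in either direction (0.0644% of all genes) and none had an unadjusted p under 0.05 (17.2% of all genes), nor did DESeq2, limma voom or the exact test call one, with log2 FC of -0.18 (Parp14) to 0.14 (Dtx3l).

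The same comparison was made at D26 of treatment, with no mouse in common with the comparison at steady state. Again 5 of 8 genes were called lower in Irf1-/- colons, with 0.312% of the 12483 genes tested. Again these were Uba7, Parp10, Parp12, Parp14 and Parp9. For each of the 8 genes the groups did not overlap, which held for 14.5% of all genes in this direction. The members' median log2 FC was -1.18, and that of all genes -0.01.

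Uba7 was 52.7, 62.9 and 65.3 CPM in treated B6 and 14.6, 18.6 and 13.4 CPM in treated Irf1-/- mice. This was a 3.92-fold decrease (log2 FC -1.97 ± 0.14, adjusted p = 0.000594 in edgeR). Parp10 was 46.2, 41.9 and 49.3 CPM against 17.6, 19.7 and 20.3 CPM (-1.27 ± 0.11, adjusted p = 0.000874). Parp12 was 123, 117 and 130 CPM against 55.6, 57.6 and 46.0 CPM (-1.23 ± 0.11, adjusted p = 0.00102). These 3 genes stayed called whichever of the 6 mice was left out.

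Parp14 was 123, 158 and 140 CPM in treated B6 and 52.1, 71.3 and 45.6 CPM in treated Irf1-/- mice (log2 FC -1.33 ± 0.16, adjusted p = 0.00639 from edgeR), with replicate 2 the highest library of both groups. Parp9 was 69.7, 86.7 and 82.8 CPM against 42.4, 46.2 and 39.6 CPM (-0.92 ± 0.11, adjusted p = 0.00521). Leaving out a mouse ended the call of Parp14 in 4 of 6 fits: without B6 replicate 2 (adjusted p 0.0170) or 3 (0.0369) and without Irf1-/- replicate 1 (0.0365) or 3 (0.0215). Parp9 lost it in 5 of 6, without B6 replicate 2 (0.0137) or 3 (0.0325) or Irf1-/- replicate 1 (0.0268), 2 (0.0235) or 3 (0.0237).
Herc6 was 11.99, 20.8 and 15.96 CPM in treated B6 and 8.07, 7.21 and 7.23 CPM in treated Irf1-/- mice (-1.13 ± 0.20, adjusted p = 0.0301). Dtx3l was 103, 107 and 114 CPM against 60.3, 79.9 and 74.1 CPM (-0.61 ± 0.11, adjusted p = 0.0318). Ube2l6 was 19.5, 26.7 and 22.8 CPM against 14.6, 16.2 and 16.1 CPM (-0.58 ± 0.13, adjusted p = 0.0633). In these 3 genes the libraries separated but the adjusted p missed 0.01, and the fold of Ube2l6 was 1.49. Of 10 alternative settings 4 called Herc6 and 4 called Dtx3l, among them DESeq2, and no fit without a mouse called either. For both genes, another of the 4 kept the fit and only raised the adjusted p threshold to 0.05. Its calls followed from the values above. DESeq2 gave an adjusted p of 0.0107 for Ube2l6.

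**Figure D2:**
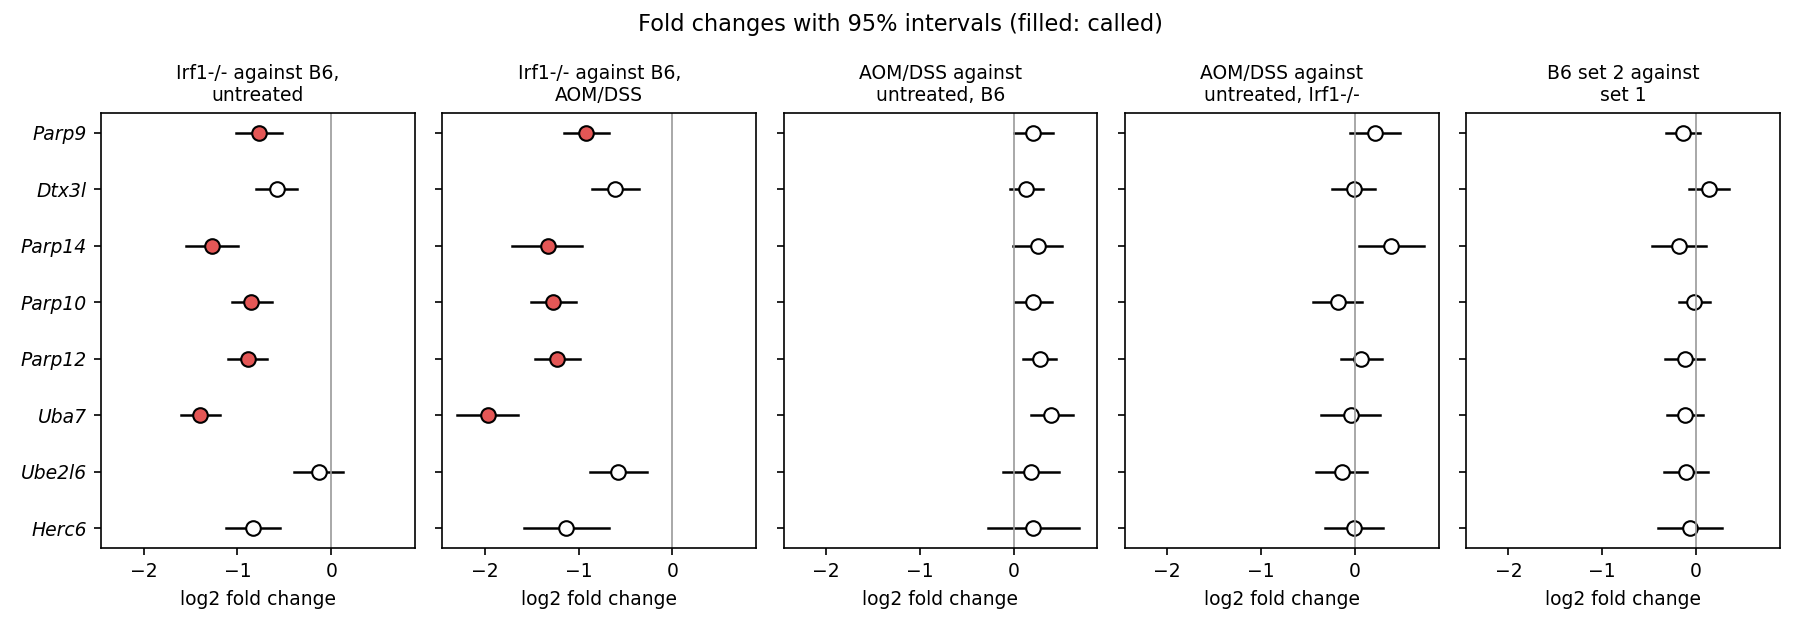
log2 fold change (horizontal axis) of the 8 genes in 5 comparisons, with 95% intervals from the quasi-likelihood fit. Filled points were called; only the genotype comparisons hold called genes, and all 8 estimates there lie below 0.

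Treated B6 colons were compared with untreated ones (control set 1) to ask how these genes respond to AOM/DSS. No member was called, as against 0.0475% of all genes in either direction, and 3 had an unadjusted p under 0.05 (29.5% of all genes). DESeq2, limma voom and edgeR's exact test called none of them either, here or between treated and untreated Irf1-/- colons. Over all genes the number called in treated against untreated B6 colons depended strongly on the method. The reported fit called 2 lower and 4 higher, limma voom 0 in either direction, and the exact test 215 lower and 245 higher. All 8 estimates were above 0, from 0.13 (Dtx3l) to 0.40 (Uba7). Uba7 was 45.8, 43.5 and 48.4 CPM untreated and 52.7, 62.9 and 65.3 CPM treated (log2 FC 0.40 ± 0.10, adjusted p = 0.0432 from edgeR), and Parp12 0.28 (adjusted p = 0.0577). The groups did not overlap for 4 of 8, Parp10, Parp12, Dtx3l and Uba7, where 17.2% of all genes separated upward.
In the treated B6 libraries, levels relative to each gene's mean over the 15 libraries went up with the GC content of the gene. Across 12271 genes, the slope of this deviation in log2 CPM was 0.13 to 0.28 per 10% GC in treated B6 mice. It was -0.12 to 0.03 in the other 12 libraries. No library of another group had such a slope, so an effect of how these libraries were made cannot be told apart from that of the treatment. Parp10, with 57.9% GC, had a log2 FC of 0.21 before and 0.03 after a correction for GC content. Herc6, with 39.4% GC, had 0.21 before and 0.52 after (adjusted p = 0.189), and Uba7 0.40 before and 0.26 after (adjusted p = 0.197). The same treated B6 libraries enter the comparison of genotypes at D26, so this limit holds there too. Over the 10 alternative settings of that comparison, GC correction among them, Parp10 ran from -1.27 to -1.11. In the same settings Herc6 ran from -1.41 to -1.10 and Uba7 from -1.98 to -1.84.

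In Irf1-/- colons, treated mice were compared with untreated ones in the same way. No member was called in either direction (0.252% of all genes were), and 1 had an unadjusted p under 0.05 (18.6% of all genes). That was Parp14, at 42.4, 48.0 and 38.7 CPM untreated and 52.1, 71.3 and 45.6 CPM treated (log2 FC 0.39 ± 0.16, adjusted p = 0.223), with overlapping groups. Uba7 was -0.04 (95% interval -0.36 to 0.27), and the others lay between -0.18 (Parp10) and 0.22 (Parp9).

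The difference between the responses, Irf1-/- minus B6, was tested as an interaction. No member was called, as against 0.0160% of all genes, and 2 had an unadjusted p under 0.05 (16.9% of all genes). DESeq2 and limma voom called none. The 2 were Parp10 (-0.39 ± 0.14, adjusted p = 0.205) and Uba7 (-0.44 ± 0.17, adjusted p = 0.220). The remaining 6 lay between -0.32 (Ube2l6) and 0.14 (Parp14). After GC correction Parp10 was -0.25 (adjusted p = 0.537) and Herc6 moved from -0.22 to -0.48 (adjusted p = 0.489). Each of the 4 groups in this test also enters other comparisons above, so these values are not independent.

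Parp9, Dtx3l and Parp14 lie together on chromosome 16, and in RefSeq Parp9 and Dtx3l overlap. Whether reads were counted by strand is not given in the sources used here, so reads in that overlap cannot be told apart between the genes. The protein-coding genes next to this group on either side, Hspbap1 and Kpna1, were picked for their position after the members' values were seen. Untreated Irf1-/- against B6, Hspbap1 was 0.33 (adjusted p = 0.394 from edgeR) and Kpna1 0.07 (0.822). After treatment they were 0.24 (0.325) and 0.35 (0.103). Neither was below 0.

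Ratios within a library were chosen after the values were seen and are given without a test. The log2 ratio of Uba7 to Ube2l6 was 1.16 ± 0.18 in control set 1, 1.14 ± 0.09 in control set 2 and 1.38 ± 0.14 in treated B6 colons. In Irf1-/- colons it was -0.10 ± 0.30 untreated and -0.02 ± 0.23 treated (SD, n = 3). The B6 libraries ranged from 0.99 to 1.49 and the Irf1-/- libraries from -0.38 to 0.22. CPM are not scaled for length, so the ratio compares groups and not the abundance of the enzymes. The log2 ratio of Parp9 to Dtx3l was -0.50 ± 0.05, -0.77 ± 0.07 and -0.44 ± 0.13 in the same B6 groups and -0.97 ± 0.17 and -0.73 ± 0.20 in untreated and treated Irf1-/- colons, with overlap between genotypes.

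**Figure D3:**
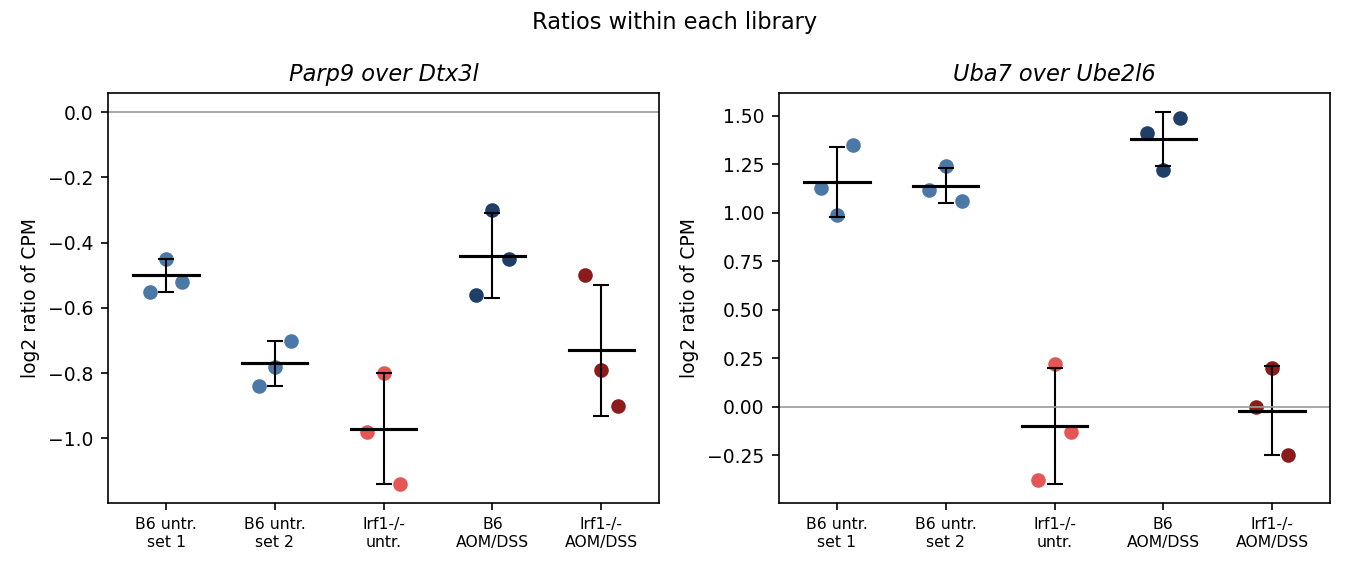
log2 ratio of CPM (vertical axis) of Parp9 to Dtx3l and of Uba7 to Ube2l6 in each library, with the mean and SD of 3 mice. The ratio of Uba7 to Ube2l6 is 0.99 or higher in every B6 library and 0.22 or lower in every Irf1-/- library.

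The members were set beside relatives that are not among them. In the untreated comparison no gene was called among 12 other Parp enzymes, 4 other Deltex ligases, 9 other activating enzymes of ubiquitin-like proteins, 4 other Herc ligases, 5 other enzymes linked to Isg15 and 10 readers and erasers of ADP-ribose. Their median log2 FC lay between -0.06 and 0.08. An unadjusted p under 0.05 was found for 10.4% of all genes and for 2 of these relatives. They were Zc3hav1, a catalytically inactive Parp that binds viral RNA (-0.15), and Dtx1 (0.63). Parp3 was -0.25 (adjusted p = 0.483 from edgeR). The smallest p of the other families belonged to Mocs3 (-0.21) among activating enzymes, Herc1 (0.12), Oard1, an eraser (-0.15), and Ube2e1 (-0.16).
After treatment none of the same genes was called either, and 8 had an unadjusted p under 0.05, 4 lower and 4 higher. The median log2 FC of the families lay between -0.06 and 0.11. By smallest p, the lower ones included Parp3 at -0.34 (adjusted p = 0.119 from edgeR), Zc3hav1 at -0.26 (0.133), Adprh at -0.28 (0.147) and Dtx3 at -0.30 (0.149). The higher ones included Nae1, of the Nedd8 activating enzyme, at 0.38 (0.0757), Uba6, an activating enzyme for ubiquitin, at 0.63 (0.0954) and Arih1, of the enzymes linked to Isg15, at 0.31 (0.105).

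Interferon receptors and signalling genes gave 0 of 15 called in either comparison of genotypes, with 3 at an unadjusted p under 0.05 in each. The list includes Irf1, the mutated gene itself, which had the smallest p of the list in both. Irf7, a regulator of type I interferon, was -0.84 untreated (adjusted p = 0.183 from edgeR) and -1.75 treated (0.0197). Of the other interferon-stimulated genes, 3 of 26 were called lower untreated: Ddx60 (log2 FC -2.32, adjusted p = 0.000691), Zbp1, a sensor of nucleic acids (-1.81, 0.00131), and Nmi (-0.69, 0.00822). Their median was -0.31 beside -0.84 of the members. After treatment 26 were tested again, but with Mx1 in place of Zbp1, which was not analysed in that comparison. Of these 2 were called, Ddx60 (-3.11, 0.00735) and Nmi (-0.86, 0.00856), with a median of -0.56. In treated against untreated B6 colons none of 29 was called, 18 were higher at an unadjusted p under 0.05, and the median was 0.50.

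**Figure D4:**
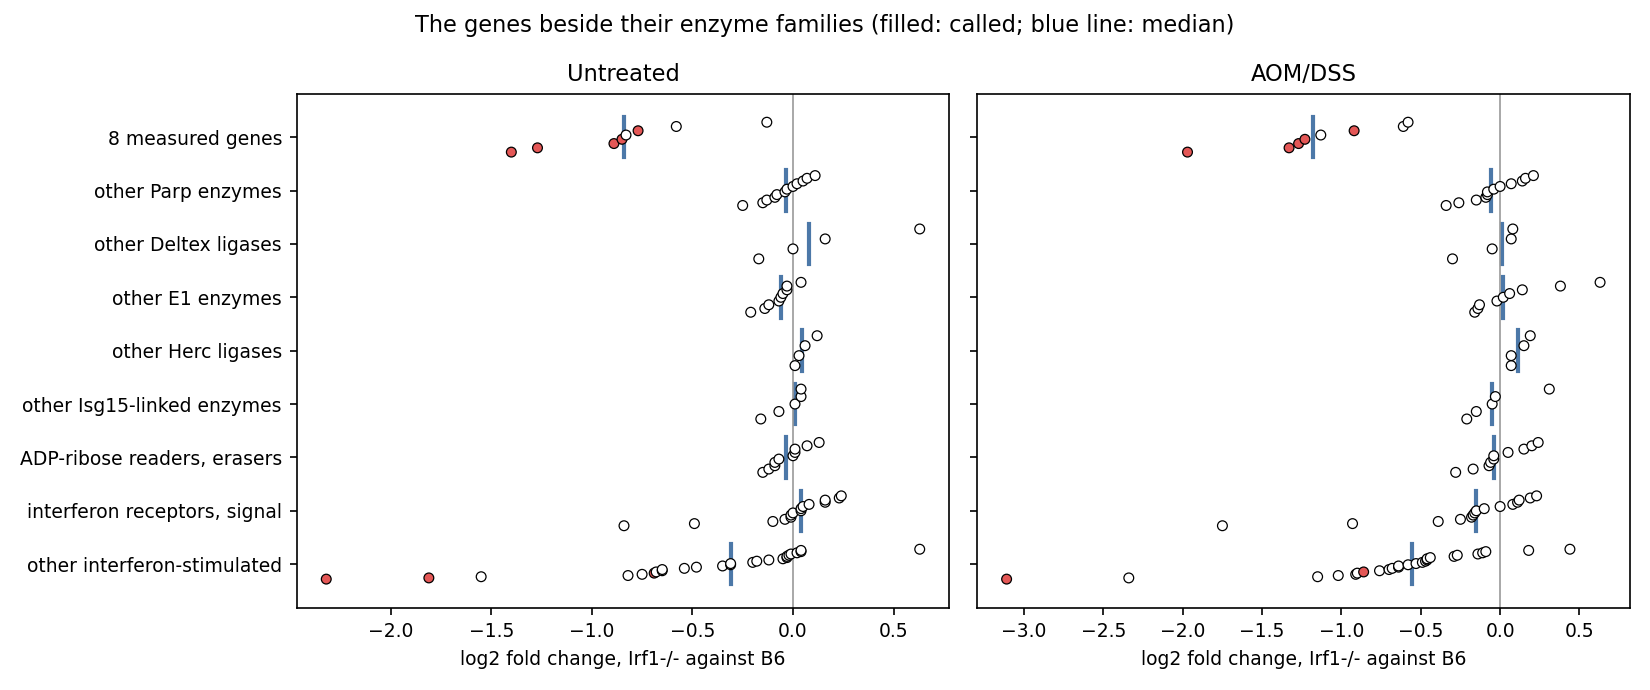
log2 fold change of Irf1-/- against B6 (horizontal axis) for the 8 members and for genes of related families, untreated (left) and at D26 (right). Each point is a gene, filled if called, and the blue line is the median of the list; the medians of the members (-0.84 and -1.18) and of other interferon-stimulated genes (-0.31 and -0.56) lie furthest to the left.

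Among the 8 genes whose pattern over 15 libraries was most like the mean of the members' scaled log2 CPM were Psmb10, an immunoproteasome subunit (Pearson r = 0.988), Tapbp, which loads peptide on MHC class I (0.986), AW112010 (0.982), Upp1 (0.982), Tap2, a peptide transporter (0.977), Ddx60 (0.974) and Ano9 (0.972). Psmb10 was also the most like Uba7 (0.991), next to Upp1 (0.981), and the most like Parp10 (0.982), next to Ly75 (0.977). Ddx60 was among the 2 genes most like Parp9 (0.976), Parp14 (0.983) and Parp12 (0.974). For Dtx3l these were Ly75 (0.937) and Psmb10 (0.921), for Herc6 Ano9 (0.951) and Gbp2 (0.949), and for Ube2l6 Btnl1 (0.918) and Itm2b (0.886). Libraries of the genotypes lie apart, so that r mostly describes that gap. Psmb10 was 62.7 and 59.3 CPM in the control sets, 87.6 CPM in treated B6 and 19.4 and 18.1 CPM in untreated and treated Irf1-/- colons. Within groups, as deviations from the group mean, r between members ran from -0.46 (Parp10 with Ube2l6) to 0.894 (Parp14 with Uba7).

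Markers of the cells in the tissue are given beside these results, and their part in them was not tested. In untreated Irf1-/- against B6 colons, 18 measured leukocyte markers had a median log2 FC of 0.14, with 0 called. Of these, 7 were higher at an unadjusted p under 0.05, which 10.4% of all genes had in either direction. The sum of the 18 markers was 472 to 579 CPM in Irf1-/- and 400 to 535 CPM in control set 2. In control set 1 it was 439 to 702 CPM, a range that holds all Irf1-/- libraries, and 16 of 18 markers were lower in set 2 than in set 1 (median log2 FC -0.44, 4 at an unadjusted p under 0.05), so that the direction depends on the control set. At D26 the sum was 724 to 745 CPM in Irf1-/- and 611 to 846 CPM in B6 colons. The other 10 listed, among them the T cell gene Cd3e, were not analysed over all tables. The epithelial list had a median of -0.02 untreated and -0.26 treated, where 14 of 16 were below 0, 8 had an unadjusted p under 0.05 and none was called. The sum of the epithelial list was 14110 to 15222 CPM in treated Irf1-/- and 14442 to 18598 CPM in treated B6 colons. A large part of it was 1 gene, Muc2, at 4311, 4657 and 4293 CPM in treated Irf1-/- mice. In treated B6 mice Muc2 was 2668, 7000 and 4821 CPM, so the sum is no even measure of the list. Smooth muscle (median 0.08 and -0.08) and endothelial and fibroblast markers (0.03 and 0.14) had 0 genes called, and at an unadjusted p under 0.05 there was 1 gene, Lum, after treatment (0.45).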

How the data were processed

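Total RNA of distal colon was rRNA-depleted, made into stranded libraries and sequenced as 50 bp pairs. The authors deposited read counts per gene, not normalized, for genes with at least 5 CPM in 3 or more libraries, and the submitters' processing notes name TopHat2 2.0.9, Bowtie 1.0.0, featureCounts, edgeR and mm9. The 36 columns of the authors' CPM and log CPM, and columns of their own fold changes and p-values, were not used. The untreated Irf1-/- counts are identical in 2 tables and were used once. Members and lists were chosen with earlier results of these data known.

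Counts were scaled by TMM and tested with edgeR 4.0.16 (quasi-likelihood, R 4.3.3) over all genes of a comparison, with Benjamini-Hochberg adjustment. Transcript length and GC content came from GENCODE M21. Named genes were all members present, list genes called (up to 4 by smallest p, otherwise the 2 with smallest p), and the 8 genes most like the members' mean, of which 1 is not reported here. Marker lists were summed in CPM. Alternatives were RLE size factors, DESeq2 1.42.0, limma 3.58.1 voom, edgeR's exact test, a joint fit of all 15 libraries, a block for the replicate number, GC correction (lowess, span 0.3), block with GC correction, a mean of at least 10 CPM, an adjusted p under 0.05, other control sets, and each mouse left out. The test was checked on simulated data. Errors are SD of 3 mice or standard errors of log2 FC. Reads counted over the deposited genes came to 22266607 to 22869853 per library, and the full sequencing depth is not known from them. Python 3.11.15 and matplotlib 3.10.9 were used.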

Additional observations from a re-analysis of the deposited data

Results flagged for a closer look

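The estimates for Parp10 with AOM/DSS had opposite signs in the 2 genotypes. Each treated B6 library lay above the untreated B6 mean of 39.9 CPM (41.9 to 49.3 CPM), and each treated Irf1-/- library lay below the untreated Irf1-/- mean of 21.9 CPM (17.6 to 20.3 CPM). The Irf1-/- groups overlapped, however, as the untreated mice were at 19.8, 25.2 and 20.5 CPM (log2 FC -0.18, adjusted p = 0.454 from edgeR). In B6 the log2 FC was 0.21, and it ran from 0.02 to 0.23 over the alternative settings. The difference between the responses was -0.39 on the log2 scale (standard error 0.14, adjusted p = 0.205 from edgeR's interaction test), so it did not pass the threshold, and it was -0.25 after GC correction.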

How the results depend on the processing

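Of 855 values of single genes under the alternatives, 787 kept their direction and side of the threshold, 28 lost a call, 14 gained one and 26 changed sign. Only values of the 5 genes called in each comparison of genotypes could lose a call, so the 28 are not a share of all 855. The 5 members called lower in untreated Irf1-/- colons became 2 to 5 when a mouse was left out, and the 5 called at D26 became 3 to 5. With the replicate number as a block the count at D26 was 1 (Uba7), and 1 with the GC correction as well; untreated it was 4. Whether replicate numbers mark pairs cannot be settled with 3 mice per group. Correlations of same-numbered deviations ran from 0.00043 to 0.0546 untreated and from -0.222 to 0.176 at D26. Of the samples, 3 of 6 and 2 of 6 correlated best with their own number. Over all genes, 36 to 96 were called lower untreated (40 in the reported fit) and 6 to 142 at D26 (39), the highest with control set 1 and with DESeq2 or edgeR's exact test. Leaving out a mouse gave 20 to 45 untreated and 16 to 45 at D26, in each the lowest without Irf1-/- replicate 1. The block changed no other count of members. For the difference between responses the exact test, which takes 2 groups, was not run.

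Values that changed sign were as follows. In treated B6 colons Herc6 ran from -0.00 to 0.39 over left-out mice. In treated Irf1-/- colons Herc6 was 0.04 with GC correction, with or without the block, and left-out mice gave -0.07 to 0.07 for Herc6, -0.11 to 0.09 for Dtx3l and -0.20 to 0.05 for Uba7. For the difference between responses, Parp9 was -0.03 with GC correction, -0.02 with the block as well, -0.13 with control set 2 and -0.05 with both sets, and -0.09 to 0.15 over left-out mice. Parp14 was -0.05 with control set 2 and -0.07 to 0.26 over left-out mice. Between control sets, Parp10 was 0.01 with GC correction, with or without the block, and -0.04 to 0.01 over left-out mice, and Herc6 -0.21 to 0.06. The cause was not tested.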
